A study of Arabidopsis thaliana with 6 samples.

Results

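The genes described here are the 200 brightest, on 6 arrays of Arabidopsis thaliana cotyledons, among genes whose mean signal differed little between the apl mutant and wildtype. They were taken from 38408 probe sets, of which 14896 were paired with a single locus code, standing for 14743 genes. For each gene the brightest probe set was kept. Genes with a difference of group means of 0.8 or more on the log2 scale, and the genes from AT1G07650 to AT1G09230, were left out, which left 13809 genes. These were ranked by the mean of the 3 wildtype arrays, and the first 200 were taken. The genes were thus chosen by their wildtype level and by the difference between the groups, and their values on these scales are descriptions.

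The groups were 3 arrays of the apl mutant and 3 of wildtype Col-0. The labels name neither the apl allele nor its background. Cotyledons of 6-day-old seedlings of both genotypes were cultured in the same induction medium and collected after 72 h. The medium contained 1.25 mg/L of the auxin 2,4-D, 0.25 mg/L of the cytokinin kinetin, and 10 µM of bikinin, an inhibitor of GSK3-type kinases. In this culture, called VISUAL, leaf cells are turned into cells of the vascular tissue, and APL encodes a MYB-type regulator of phloem. There was no uninduced group, so nothing here compares induced with uninduced cotyledons.

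A plant cell devotes much of its RNA to machinery that every cell needs. Cytosolic ribosomes, built from nuclear-encoded proteins and ribosomal RNA, make most proteins, and in plants each ribosomal protein comes from a small family of near-identical genes. Mitochondria make ATP with a respiratory chain and an ATP synthase whose subunits are encoded partly in the nucleus and partly in the mitochondrial genome, and in Col-0 a large copy of mitochondrial DNA is inserted in chromosome 2 near the centromere.

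The name "most abundant" held only among genes named by a locus code. The dimmest of the 200 had a wildtype mean of 11.18, and 1332 probe sets on the array were at or above it. Of these, 897 were paired with no gene, 55 with several, and 129 with a symbol that is no locus code, among them 56 of the plastid genome and 17 of the mitochondrial genome. Another 43 genes under a locus code were as bright in wildtype but went past the difference limit, all 43 lower in apl, and 2 lay in the excluded stretch of chromosome 1. Brightness was judged by the wildtype mean alone, so genes bright only in apl could not be counted. No direction is read from the 43. A probe set's signal also depends on its probes, so the order of genes is an order of signals and not of transcript amounts.

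On each array the median of the 200 lay between 11.61 and 11.70, against array medians of 6.05 to 6.25 over all probe sets. Of the 200, 165, 178 and 164 were also among the 200 brightest of the ranked genes on the 3 apl arrays, and 177, 182 and 183 on the 3 wildtype arrays. The induced tissue itself could not be checked with xylem, phloem, mesophyll or epidermis markers, since 0 of 23 such genes were measured under a locus code, and no probe set was paired with APL. In bulk tissue, fewer cells of a type and less RNA per cell cannot be told apart.

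**Figure D1:**
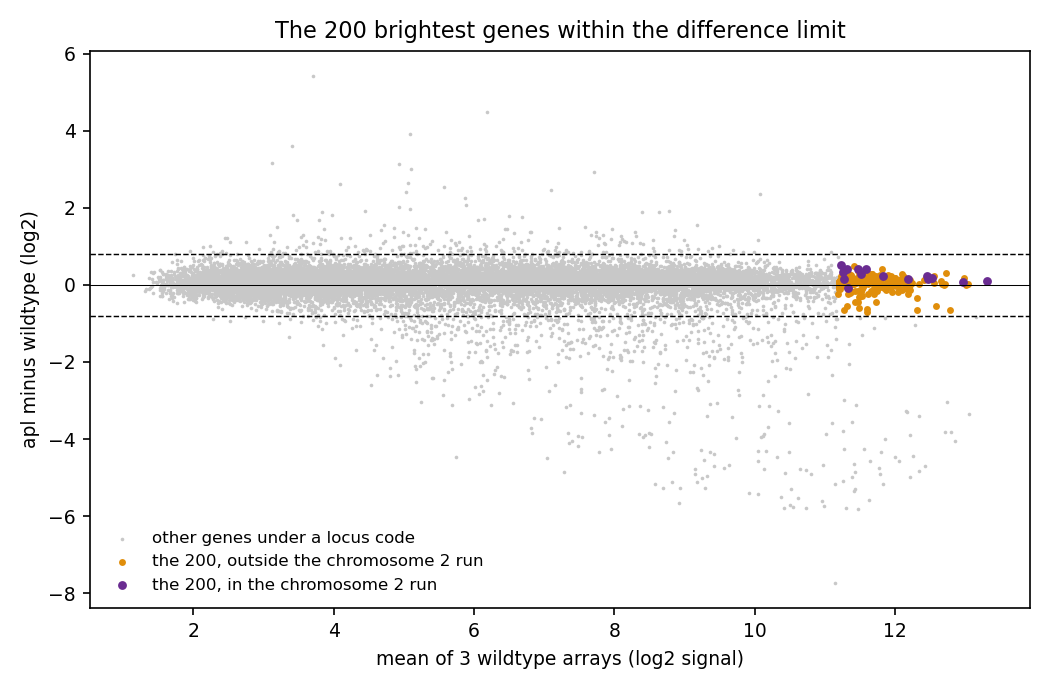
Each point is a gene under a locus code, with its mean of 3 wildtype arrays (log2 signal) on the x axis and apl minus wildtype (log2) on the y axis. The 200 genes lie right of 11.18 and between the dashed lines at 0.8 above and below 0, and genes past the lower line at that brightness are all left out by the limit.

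The limits cut through a continuous distribution. The last genes taken were AT4G30020, a subtilisin-type protease, at a wildtype mean of 11.20, AT2G35050, a protein kinase, at 11.19, and AT5G22850, an aspartyl protease, at 11.18. The first ones left out, AT5G19440, AT2G32730 and AT5G35200, were each at 11.18. At the difference limit, the members farthest below 0 were AT5G42720 at -0.70, AT2G28315 at -0.65 and AT3G63050 at -0.65. Just outside were AT5G51890, a peroxidase, at -0.83, AT5G26330 at -0.86 and AT4G19860 at -0.87.

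More probe sets were lower in apl than higher by test. Of 38408 probe sets, limma with Benjamini-Hochberg adjustment over all of them called 0.604% at an adjusted p under 0.05, 0.0781% as higher and 0.526% as lower in apl. Among the 200 the same fit called 0, and 2 had an unadjusted p under 0.05, both lower in apl. With the replicate number as a block it called 1.1% of probe sets, 0.211% as higher and 0.885% as lower, and again 0 of the 200. The limit of 0.8 removed the larger differences beforehand, so nothing is read from this count.

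Small differences of the 200 were mostly above 0. In 136 of 200 genes the apl mean was above the wildtype mean, with a median difference of 0.07 and a range of -0.70 to 0.52. Over all genes under a locus code 61.6% were above 0, with a median of 0.08. The median over all probe sets was itself 0.10, and with quantile normalization or median centring of the arrays it became 0.05. Relative to those scalings the 200 were centred near 0, with medians of -0.01 under quantile normalization, where 94 genes were above 0, and 0.01 under centring, where 107 were. The groups did not overlap, with apl higher, in 28 of the 200, against 9.91% of all probe sets, and with apl lower in 6, against 5.32%. Among the next 200 genes in the ranking the groups did not overlap in 28 with apl higher and in 17 with apl lower.

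The brightest of the ranked genes on all 6 arrays was AT2G07741, which resembles subunit a of the membrane part of ATP synthase. Its signal was 13.42, 13.39 and 13.41 in the apl arrays and 13.38, 13.25 and 13.30 in the wildtype arrays. The apl arrays lay just above the wildtype arrays, by 0.10 in the mean. AT3G48140, which encodes a small B12D-type protein, followed with 13.05, 13.12 and 13.01 in apl and 12.90, 13.05 and 13.16 in wildtype, and the groups overlapped fully. AT5G42050, a protein with the plant DCD domain linked to stress and cell death, had 13.08, 12.87 and 13.10 in apl and 12.96, 12.98 and 13.11 in wildtype, again with full overlap.

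Of the 25 brightest genes, 12 had a difference smaller than the larger of their SDs, and the groups did not overlap in 5 with apl higher and in 1 with apl lower, against 9.91% and 5.32% of all probe sets. AT5G47030, a subunit of the mitochondrial ATP synthase, had 12.65, 12.77 and 12.68 in apl and 12.68, 12.80 and 12.63 in wildtype. AT5G21090, a leucine-rich repeat protein, had 12.63, 12.70 and 12.86 in apl and 12.61, 12.71 and 12.82 in wildtype. In both genes the arrays with the same replicate number differed by 0.06 at most. AT1G16180, a Serinc-type membrane protein, AT1G07080, a thiol reductase of the GILT type, AT5G20080, a cytochrome b5 reductase-like protein, and AT1G14670, a membrane protein of the secretory pathway, had differences between 0.01 and 0.04.

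The apl mean was lower by more than 0.3 in 4 of the 25, each with a wide spread in apl. AT2G28315, which encodes UXT1, a Golgi transporter that supplies UDP-xylose for wall polysaccharides, had 12.48, 12.42 and 11.49 in apl and 12.68, 12.73 and 12.93 in wildtype. All apl arrays were below all wildtype arrays, with a mean difference of -0.65, and apl replicate 3 was the farthest away. AT3G63050 had 11.07, 12.30 and 11.65 in apl and 12.16, 12.52 and 12.28 in wildtype, so apl replicate 2 lay within the wildtype range. AT4G23680, of the major latex protein family, had 12.51, 11.87 and 11.75 in apl and 12.89, 12.90 and 11.97 in wildtype, where wildtype replicate 3 was also low. AT4G19110, a protein kinase, had 11.95, 12.26 and 11.67 in apl and 12.30, 12.44 and 12.20 in wildtype. AT3G63052 stood on the other side, with 12.92, 12.94 and 13.21 in apl and 12.71, 12.59 and 12.86 in wildtype, and no overlap between the groups.

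**Figure D2:**
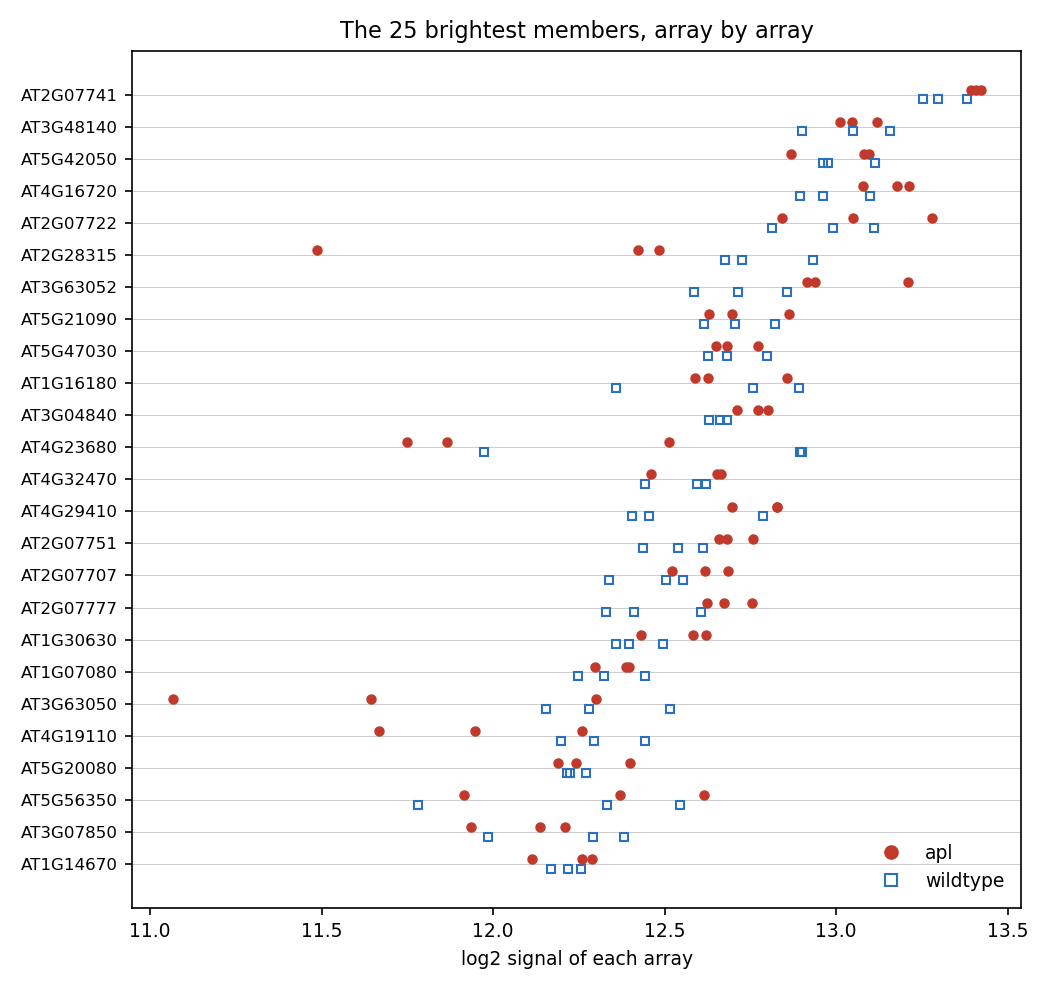
Each row is 1 of the 25 brightest members, with the log2 signal of each of the 3 apl arrays (filled circles) and 3 wildtype arrays (open squares) on the x axis. Groups overlap in most rows, and AT2G28315 and AT3G63052 are examples without overlap, in opposite directions.

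Apart from the excluded stretch of chromosome 1, the selection did not use position. Of the 200 genes, 15 came from a run of AT2G07 locus codes that lies, in the RefSeq gene order of assembly TAIR10.1, between AT2G07660 and AT2G07670. The run has 185 loci in that table, of which 49 were measured under a locus code, and 5 of the 25 brightest members came from it. With these genes, chromosome 2 held 37 of the 200, and 22 without them. The other chromosomes, 1, 3, 4 and 5, held 49, 41, 28 and 45. All genes measured on chromosomes 1 to 5 numbered 3860, 2252, 3030, 2162 and 3439. The measured genes that flank the run were dim, at wildtype means of 3.23 for AT2G07640, 4.62 for AT2G07750 and 3.71 for AT2G07760.

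The run carries copies of mitochondrial genes, and its probe sets cannot be assigned to the nuclear copy alone. In the platform annotation, 20 probe sets were paired with both an AT2G07 locus and a mitochondrial gene, and these were outside the selection because they have several symbols. Probe sets under a single locus code that were numbered between the last plastid and the last mitochondrial symbol numbered 17, and all 17 were paired with genes of the run. For 4 of the 15 members, AT2G07777, AT2G07708, AT2G07719 and AT2G07739, the brightest probe set was of that kind. Of the run members, 7 had more than 1 probe set. For AT2G07707 the probe set used, numbered elsewhere, tied with one of that kind that held identical values.

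Among the run members with a product like a subunit of ATP synthase or complex I were, besides AT2G07741, AT2G07707, AT2G07698, AT2G07751 and AT2G07689. AT2G07707 resembles subunit 8 of ATP synthase and had 12.52, 12.62 and 12.69 in apl and 12.55, 12.34 and 12.50 in wildtype. AT2G07698, like the alpha subunit of the catalytic part of ATP synthase, had 11.58, 11.54 and 11.63 in apl and 11.36, 11.19 and 11.24 in wildtype. The groups of AT2G07698 did not overlap and differed by 0.32, more than their SDs of 0.04 in apl and 0.09 in wildtype. AT2G07751, like chain 3 of the NADH dehydrogenase of complex I, had 12.66, 12.76 and 12.68 in apl and 12.54, 12.44 and 12.61 in wildtype, also without overlap. AT2G07689, annotated as another complex I protein, had 12.34, 12.34 and 12.30 in apl and 12.34, 12.02 and 12.20 in wildtype, where wildtype replicate 1 reached the apl level.

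Of the 10 other members of the run, AT2G07721 was farthest above 0 among all 200, at 0.52, with 11.47, 11.63 and 12.14 in apl and 11.15, 11.02 and 11.51 in wildtype. The highest wildtype array of AT2G07721 lay above the lowest apl array, and within each replicate number apl was higher. AT2G07672, at 11.84, 11.70 and 11.68 in apl and 11.48, 10.95 and 11.54 in wildtype, AT2G07825, at 11.93, 11.78 and 11.96 in apl and 11.64, 11.30 and 11.49 in wildtype, and AT2G07830, at 12.05, 12.04 and 11.89 in apl and 11.85, 11.42 and 11.48 in wildtype, differed by 0.41 to 0.42. In each of these genes all apl arrays were above all wildtype arrays. AT2G07739 was the exception to the direction of the run, with 11.56, 11.46 and 10.74 in apl and 11.51, 11.32 and 11.17 in wildtype, and its second probe set, much dimmer, differed by 0.06.

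As a group, 14 of the 15 run members were above 0, with a median difference of 0.24, and the groups did not overlap in 7, all with apl higher, against 9.91% of all probe sets. By replicate number the median was 0.05, 0.34 and 0.18, against 0.09, 0.09 and 0.001 over all genes under a locus code. In replicate 1 the run members were thus not above genes in general. The rule kept members below 0.8 but did not choose the other 34 measured genes of the run, and those were all above 0, with a median of 0.36 and a range of 0.15 to 0.61. For them the medians by replicate number were 0.19, 0.59 and 0.29. Limma called 0 of these 34, and 3 had an unadjusted p under 0.05, all higher. Of all 14743 genes under a locus code, 444 were higher and 792 lower at that unadjusted p. Under quantile normalization and under centring 14 of 15 members were above 0, with medians of 0.17 and 0.18.

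**Figure D3:**
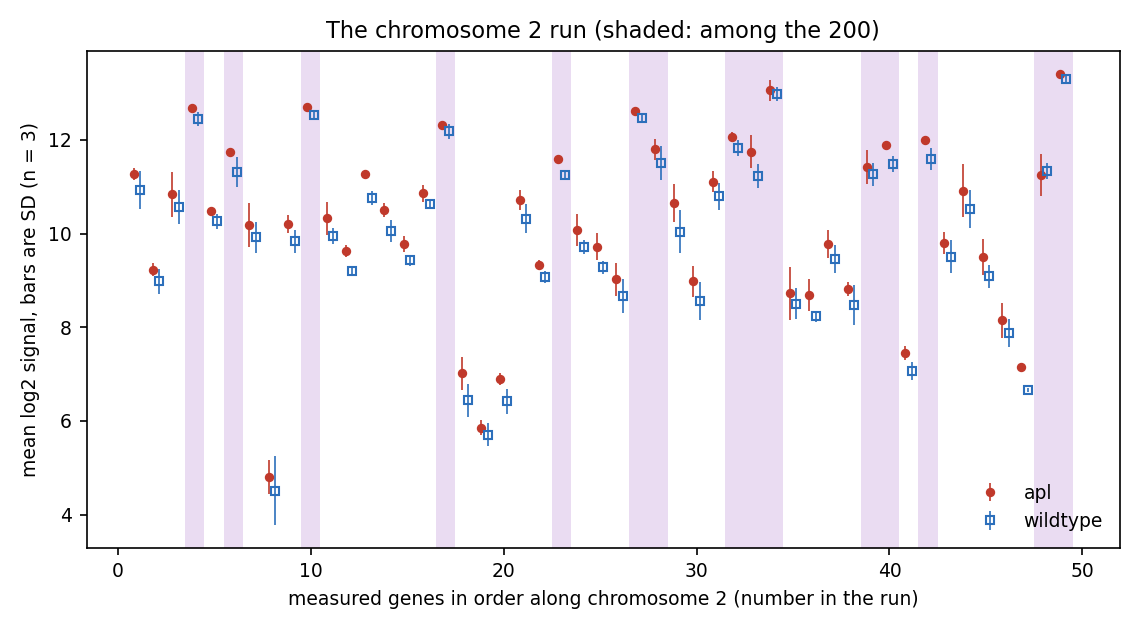
Measured genes of the chromosome 2 run are numbered in gene order on the x axis, with the mean log2 signal of apl (filled circles) and wildtype (open squares) and the SD over 3 arrays as bars. Shaded positions are the 15 members, and apl lies above wildtype at every position except that of AT2G07739.

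Probe sets named by a gene of the mitochondrial genome itself, outside the selection, pointed the same way by a smaller amount. These were 21 probe sets of 12 distinct genes, with more than 1 each for nad1, nad2 and nad5, so they are not 21 separate genes. All 21 were above 0, with a median of 0.17 and medians by replicate number of 0.11, 0.28 and 0.11. The medians by replicate number over all genes under a locus code were 0.09, 0.09 and 0.001. Limma called 0 of 21, and 1 had an unadjusted p under 0.05. Over all 14743 genes under a locus code, that unadjusted p was found for 444 higher and 792 lower genes. The gene atp1, which encodes the mitochondrial alpha subunit, had 12.02, 11.97 and 12.28 in apl and 11.91, 11.76 and 11.70 in wildtype, a difference of 0.30 that stands beside the 0.32 of AT2G07698. The brightest, cox1, a core subunit of cytochrome c oxidase, had 13.47, 13.52 and 13.58 in apl and 13.41, 13.36 and 13.52 in wildtype. Of the plastid genome symbols 28 of 63 were above 0, with a median of -0.02, and limma called 0, with 0 at an unadjusted p under 0.05. Under quantile normalization and under centring 14 of 63 were above 0, with medians of -0.07 and -0.08. The count of 28 depended on single arrays, with 7 above 0 without apl replicate 3 and 53 without wildtype replicate 3, where the medians were -0.10 and 0.07. How much of the run's signal came from mitochondrial transcripts was not tested.

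Nuclear genes of respiration and mitochondrial carbon metabolism formed another group of members, assembled after their values were seen. In 13 of these 14 genes the apl mean was above the wildtype mean, but the median difference was only 0.07. With quantile normalization 6 were above 0, with a median of -0.002, and with centring 10, with a median of 0.01. AT4G32470, a small subunit of complex III, had 12.46, 12.67 and 12.65 in apl and 12.44, 12.62 and 12.59 in wildtype, with the groups overlapping. AT2G20360 and AT4G02580, subunits of complex I, differed by 0.13 and 0.12 without overlap. AT4G02580 had 11.37, 11.32 and 11.39 in apl and 11.25, 11.27 and 11.22 in wildtype. Its small spread made so small a gap visible. AT4G02930, the elongation factor Tu of mitochondrial protein synthesis, was farthest above 0 in the group, with 11.61, 11.46 and 11.72 in apl and 11.39, 11.11 and 11.36 in wildtype. The other members were AT3G52730 and AT5G13440 of complex III, AT4G37830 of cytochrome c oxidase, AT1G51980 of the peptidase that trims imported proteins, AT2G20420 of succinyl-CoA ligase, AT5G55070 and AT3G13930 of the dehydrogenases of 2-oxoglutarate and pyruvate, and the carriers AT5G19760 and AT4G22310, with differences of 0.00 to 0.14.

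Cytosolic ribosomal proteins were the largest list of known genes among the members, with 11 of the 135 measured out of 206 on the list. AT4G16720, for RPL15 of the large subunit, had 13.18, 13.21 and 13.08 in apl and 13.10, 12.96 and 12.90 in wildtype. AT3G04840, for RPS3a of the small subunit, had 12.71, 12.80 and 12.77 in apl and 12.66, 12.68 and 12.63 in wildtype, where a gap of 0.10 separated groups with SDs of 0.05 and 0.03. AT4G29410, for RPL28, had 12.83, 12.70 and 12.83 in apl and 12.79, 12.40 and 12.45 in wildtype, and wildtype replicate 1 lay within the apl range. Wildtype replicate 1 also reached the apl range in the next gene. AT3G02190, for RPL39, had 12.34, 12.08 and 12.08 in apl and 12.19, 11.97 and 11.66 in wildtype. AT3G09200, for the stalk protein RPP0, had 11.56, 11.57 and 11.83 in apl and 11.71, 11.42 and 11.53 in wildtype, with overlap.

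All 11 ribosomal members were above 0, with a median of 0.18 and a range of 0.07 to 0.29. By replicate number the medians were 0.05, 0.24 and 0.30, against 0.09, 0.09 and 0.001 over all genes under a locus code. In replicate 1 the ribosomal members were thus not above genes in general. In 3 of the 11, among them AT3G04840 and AT1G77940 (RPL30), the apl arrays were all above the wildtype arrays. The 124 measured ribosomal genes that the rule did not take showed the same direction, with 121 above 0, a median of 0.26, and medians of 0.03, 0.41 and 0.35 by replicate number. Their groups did not overlap in 30 with apl higher, or 24.2% against 9.91% of all probe sets, and in 0 with apl lower. Limma called 1 of these 124, as higher, against 0.604% of all probe sets in either direction and 0.0781% as higher. At an unadjusted p under 0.05 there were 7, all higher, against 444 higher and 792 lower of all 14743 genes under a locus code. The called gene was AT1G08360, for RPL10a, at 9.19, 9.12 and 9.08 in apl and 7.99, 7.98 and 7.88 in wildtype (adjusted p = 0.0369 by limma, log2 difference 1.18 ± 0.16, SE). It lies in the stretch of chromosome 1 that was left out of the ranking, and it was not called when any 1 array was left out. Under quantile normalization 119 of the 124 were above 0 with a median of 0.21, and under centring 119 with 0.20. Near-identical family members can share probes, and how far the value of a single ribosomal gene includes its relatives was not tested.

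**Figure D4:**
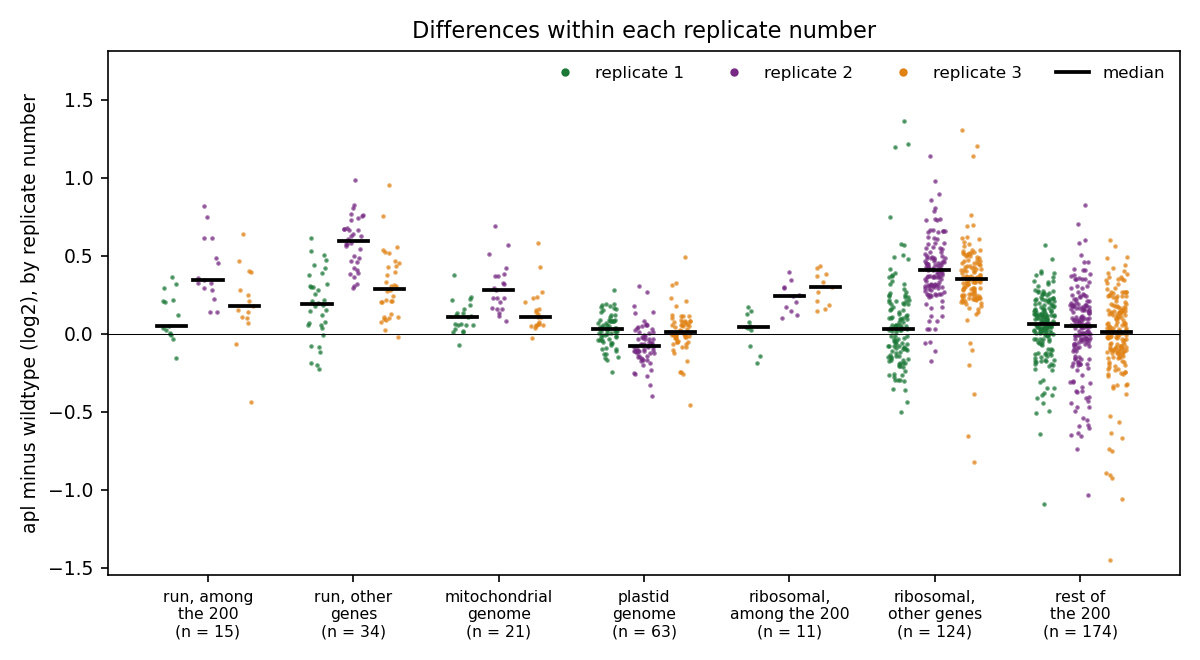
Each point is a gene or probe set, with apl minus wildtype (log2) within replicate 1, 2 and 3 on the y axis, and black bars are medians. Ribosomal genes and the chromosome 2 run lie above 0 in replicates 2 and 3. In replicate 1 they lie close to 0, except the run's other genes at 0.19. Plastid genome symbols and the remaining members lie around 0 on the deposited scale. On that scale the medians over all genes under a locus code are 0.09, 0.09 and 0.001 by replicate number.

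Translation factors and the vacuolar pump gave the only other members on the role lists. The list of proton pumps and organelle carriers had 3 measured genes with a median of -0.29, of which AT3G28710 was a member and limma called 0, with 0 at an unadjusted p under 0.05. Of 25 translation factors 8 were measured and 3 were members. AT5G19510, a beta-type subunit of elongation factor 1B, had 12.41, 12.35 and 12.30 in apl and 12.26, 11.89 and 12.20 in wildtype, and AT1G09640, a gamma-type subunit of the same complex, had 11.63, 11.81 and 11.74 in apl and 11.50, 11.46 and 11.55 in wildtype. Neither gene had overlapping groups. AT4G27130, for the initiation factor eIF1, overlapped, with 11.99, 11.91 and 11.90 in apl and 11.74, 11.54 and 11.99 in wildtype. The 5 other measured factors had a median of 0.21, with 4 above 0, and limma called 0, with 0 at an unadjusted p under 0.05. Of the 15 role lists with 599 genes, 157 genes were measured and 15 were members. Among the 157, 1 was called, the ribosomal gene above, against 0.604% of all probe sets. The lists for histones, glycolysis, chaperones and photosynthesis had 5, 3, 2 and 1 measured genes and no member, and those for ubiquitin, cytoskeleton, aquaporins, methyl donors, redox, cell wall, small GTPases and stress had 0 measured genes. A gene that the annotation names by a symbol in place of its locus code could not enter.

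The remaining groups were likewise assembled after the values were seen. Of 3 subunits of the vacuolar ATPase, which acidifies the vacuole, AT3G42050 had 12.11, 12.24 and 12.10 in apl and 12.03, 12.28 and 12.14 in wildtype, with full overlap. AT3G28710 and AT4G26710 differed by -0.02 and 0.06. Among 10 genes of vesicle coats and membrane traffic, which carry cargo between endoplasmic reticulum, Golgi and vacuole, 8 were above 0 with a median of 0.04. Under quantile normalization and centring only 3 and 4 were, with medians of -0.02 and -0.01, and without apl replicate 2 the count was 4 and the median -0.01. AT1G30630, the epsilon subunit of the COPI coat, had 12.43, 12.58 and 12.62 in apl and 12.36, 12.40 and 12.49 in wildtype, and overlapped by 1 array. AT2G19790, the sigma subunit of adaptor complex 4, had 11.61, 11.47 and 11.48 in apl and 11.28, 11.37 and 11.21 in wildtype, without overlap. AT2G43160, an epsin, was farthest below 0, at -0.18.

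Pyruvate kinase, which makes pyruvate and ATP at the end of glycolysis, was represented by 3 members. AT5G56350 had 11.91, 12.37 and 12.61 in apl and 11.78, 12.33 and 12.54 in wildtype. Both genotypes were lowest in replicate 1 and highest in replicate 3, so the difference of 0.08 was far smaller than the SDs of 0.35 in apl and 0.39 in wildtype but above 0 within each number. AT2G36580 had 11.63, 11.42 and 11.89 in apl and 11.26, 10.95 and 11.54 in wildtype, again with parallel arrays and a steady difference of 0.35 to 0.46 by number. AT3G52990 differed by 0.09. AT1G12000, for a subunit of the pyrophosphate-dependent phosphofructokinase, and AT1G12230, a transaldolase, differed by -0.01 and 0.07.

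Of the 200, 5 belong to the proteasome and related protein-marking systems, which degrade or tag proteins. AT5G23540, the deubiquitinase of the proteasome lid, had 12.09, 12.17 and 12.18 in apl and 12.06, 12.05 and 12.30 in wildtype, with overlap. AT4G24820, another lid subunit, had 10.89, 11.27 and 11.50 in apl and 10.88, 11.10 and 11.69 in wildtype, lowest in replicate 1 and highest in replicate 3 in both genotypes. AT2G17190, the ubiquitin receptor DSK2a, was lowest of the group relative to wildtype, at -0.17. The median of the 5 was 0.01, and -0.06 and -0.05 under quantile normalization and centring.

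Genes of the cell wall, which supply, build or cut pectin and other wall polymers, were the least uniform of these groups. Of 13, 7 were above 0, with differences from -0.70 to 0.48. AT3G53190, a pectate lyase, had 12.08, 11.90 and 11.69 in apl and 11.93, 11.07 and 11.24 in wildtype, a difference of 0.48 in which wildtype replicate 1 reached the apl range. The pectate lyases AT1G04680 and AT3G27400 differed by 0.20 and 0.08, and AT3G07850, a polygalacturonase, by -0.12. AT3G24480, a leucine-rich repeat extensin, which links receptors to the wall, had 11.62, 11.62 and 11.49 in apl and 11.30, 11.23 and 11.33 in wildtype, without overlap. AT3G49720, which encodes the Golgi pectin methyltransferase CGR2, had 12.13, 12.32 and 12.27 in apl and 12.08, 12.06 and 12.12 in wildtype, also without overlap.

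Below 0 in the same group stood AT5G14550, a glycosyltransferase of the core-2/I-branching type, with 10.83, 10.78 and 10.29 in apl and 11.32, 11.33 and 11.18 in wildtype. All its apl arrays were lower than all wildtype arrays. AT5G42720, a glycosyl hydrolase of family 17, had 11.01, 11.43 and 10.26 in apl and 11.65, 11.84 and 11.32 in wildtype, where apl replicate 2 lay above wildtype replicate 3. AT1G32860, of the same family, differed by -0.24. With UXT1 above, AT5G14550 and AT5G42720 are among the members farthest below 0.

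Another 6 members act at the nuclear pore or on mRNA. AT1G10390 and AT1G59660, which encode the paired pore proteins NUP98A and NUP98B, differed by 0.08 and 0.23. AT1G10390 had 12.11, 11.90 and 11.63 in apl and 12.03, 11.80 and 11.57 in wildtype, so the arrays of both genotypes stood in the same order. AT1G02080 and AT5G18230, scaffold and subunit of the CCR4-NOT complex that shortens poly(A) tails, differed by 0.06 and 0.03. AT4G02940, which encodes the RNA demethylase ALKBH10B, had 12.18, 11.69 and 12.05 in apl and 11.97, 12.15 and 12.17 in wildtype, and AT3G14100, the RNA-binding protein UBP1C, differed by 0.09.

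Outside the run, 3 pairs of neighbouring loci were both among the 200. AT3G63050 and AT3G63052 lay on opposite sides of 0, at -0.65 and 0.30, as did AT4G02930 and AT4G02940, at 0.31 and -0.13. AT5G65650 and AT5G65660 were both above 0, at 0.14 and 0.29. AT5G65660 had 12.25, 12.22 and 12.69 in apl and 12.16, 11.82 and 12.31 in wildtype. In the run, AT2G07707 and AT2G07708, AT2G07719 and AT2G07721, and AT2G07721 and AT2G07722 were neighbours. The last of these, AT2G07722, had 12.84, 13.28 and 13.05 in apl and 12.81, 12.99 and 13.11 in wildtype.

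Spread between arrays was smaller for the 200 than for the genes outside them, which are mostly dimmer and include genes past the difference limit. The median SD of the 200 was 0.13 in apl and 0.14 in wildtype. It was 0.15 in both groups for the next 200 genes in the ranking, and 0.29 in apl and 0.27 in wildtype for all genes outside the 200. An SD under 0.1 was found for 74 of the 200 in apl and 61 in wildtype, and an SD over 0.5 for 5 in apl and 4 in wildtype. The members of the run had a median SD of 0.09 in apl and 0.17 in wildtype, as a description without a test.

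**Figure D5:**
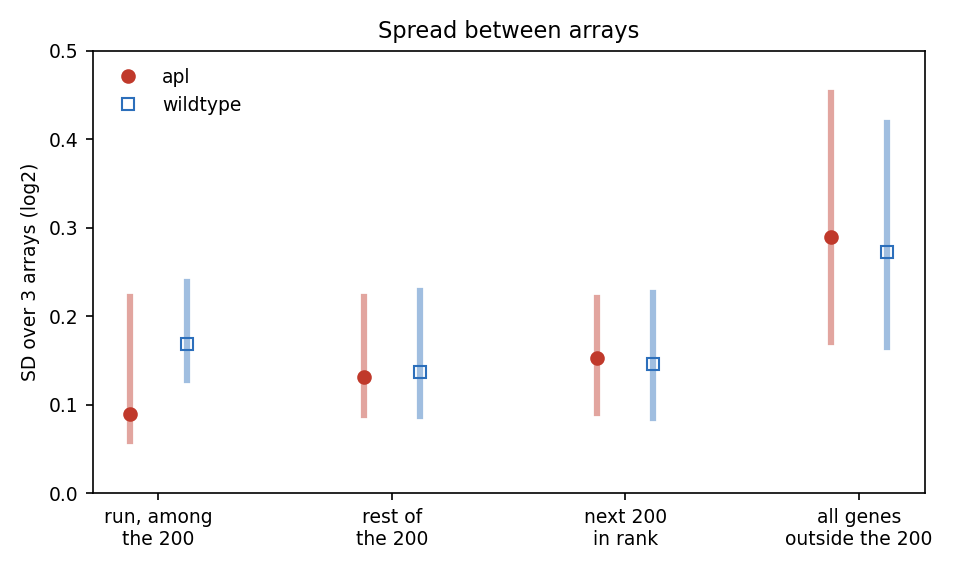
For 4 sets of genes, the median SD over 3 arrays (log2) is shown for apl (circles) and wildtype (squares), with bars from the 25th to the 75th percentile. The 200 and the next 200 in the ranking have similar medians, and all genes outside the 200 have a wider spread.

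The steadiest genes were AT3G04840, the ribosomal protein RPS3a already described, AT4G02580 of complex I, AT1G33810, AT5G10780 and AT5G53140. AT1G33810 had 11.68, 11.67 and 11.69 in apl and 11.61, 11.63 and 11.53 in wildtype. AT5G10780 had 11.64, 11.69 and 11.65 in apl and 11.61, 11.58 and 11.51 in wildtype. In both, the apl arrays were all above the wildtype arrays, by gaps that only their small spread makes visible. AT5G53140, a protein phosphatase of type 2C, had 11.33, 11.41 and 11.35 in apl and 11.34, 11.33 and 11.43 in wildtype, and its groups overlapped fully.

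The most variable were AT1G55265, AT5G42830, AT4G23680, AT5G42720 and AT3G63050. AT1G55265 had 11.24, 11.70 and 10.89 in apl and 11.06, 12.33 and 11.79 in wildtype, a range of over 1 log2 unit within wildtype. AT5G42830, an acyltransferase of the HXXXD type, had 11.83, 11.13 and 12.29 in apl and 11.44, 11.72 and 12.36 in wildtype. In these genes the groups overlapped. All 5 differences were below 0, at -0.45 for AT1G55265 and -0.09 for AT5G42830. The arrays of the other 3 are given above.

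Arrays with the same replicate number deviated together. Over the 200, deviations from the group mean correlated between arrays of the same number at 0.51, 0.45 and 0.64. Between arrays of other numbers and groups the values were -0.53 to -0.05. Deviations sum to 0 within a group, so positive values for the same number pull the others below 0. These are descriptions across genes of 6 arrays, and genes are not independent replicates. In 71 of the 200 the difference was above 0 within all 3 numbers and in 24 it was below 0 in all 3. These are 35.5% and 12%, against 25.9% and 16.7% of all genes under a locus code. For the next 200 genes in the ranking the shares were 36% and 20%. The 71 included 9 of the 15 run members and 8 of the 11 ribosomal members. Without the run, 122 of 185 members were above 0, with a median of 0.06, and the 115 members given no group here were above 0 in 66, with a median of 0.02.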

How the data were processed

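Per the labels, total RNA of each sample was hybridised to a 1-colour Affymetrix array. The authors deposited a log2 signal for each of 38408 probe sets, made with RMA per the submitters' processing notes, which give no version. RMA corrects background, equalises arrays and summarises probes, and pulls in the differences of dim genes, and it gives no detection call. Genes were named from the platform annotation, and order along chromosomes came from the RefSeq table of TAIR10.1, in which 198 of the 200 loci were found. No further scaling was applied. The model, 2-sided over all probe sets, used limma 3.58.1 (lmFit, eBayes) under R 4.3.3 and was first tested on simulated data. Calls are adjusted p-values under 0.05. Values and figures were made with Python 3.11.15, pandas 2.3.3 and matplotlib 3.10.9. Precision is limited by the number of arrays.

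The genes and lists were chosen with earlier results of these data known. Genes named are the 25 brightest, up to 6 per role list, 3 on each side of both limits, the 5 steadiest and 5 most variable, and neighbouring members; others, and the groups outside the lists, were chosen after their values were seen. A ribosomal gene that this rule takes is not reported here. Both groups share replicate numbers. Deviations over all probe sets correlated at 0.40 to 0.45 between same-numbered arrays. Otherwise the values were -0.29 to -0.16, pulled below 0 because deviations sum to 0 within a group. Same-numbered arrays held 740 to 940 identical values against 0 to 2. The number was therefore taken to pair the arrays, from the data and not the labels, and the pairing can lie in the processing. The fit behind the calls, unadjusted p-values and SE did not use this pairing, except where the replicate block is named. The labels do not say that replicates were separate cultures, so p-values reflect only how these samples vary, and that variation may be technical. Alternatives were the replicate block, quantile normalization, median centring, a filter on dim probe sets, a variance trend, other selection rules and leaving out each array.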

Additional observations from a re-analysis of the deposited data

How the results depend on the processing

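Over all probe sets, limma called 30 as higher and 202 as lower in apl. The replicate block raised these counts to 81 and 340, and a variance trend with robust prior to 98 and 314. Leaving out the probe sets under the 25th percentile raised the higher calls to 61. Without 1 array, higher calls numbered 1 to 22 and lower calls 20 to 308. The list genes called were 1 in the fit reported and 0 without any 1 array, and the block changed no call of a gene named here. The median difference of all 200, 0.07, became -0.00616 with quantile normalization and 0.0108 with median centring, and 0.0345 to 0.0801 without 1 array, lowest without wildtype replicate 1. Medians of run members (0.14 to 0.29 without 1 array), mitochondrial symbols (0.13 to 0.22), ribosomal members (0.12 to 0.28) and other ribosomal genes (0.20 to 0.35) stayed above 0, while plastid symbols ranged from -0.10 to 0.07. Why the values moved was not tested. Of the 200 genes, 176 were also taken when ranked by the apl mean, 191 with a limit of 0.5, 162 with no limit, 198 with probe sets averaged per gene, 199 with quantile normalization and 187 to 199 without 1 array. Promoter motifs and protein features were planned but not analysed here, and no sequence is shown. Without detection calls, whether the dim flanking genes are above background is unknown. Centring, quantile normalization and leave-one-out of the group medians were added after seeing the data.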
